A study of Mus musculus with 12 samples.

Results

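Cathepsins are the proteases of lysosomes and endosomes, and the vacuolar H+-ATPase is the proton pump that acidifies these compartments. The genes described here are those whose symbol is Cts followed by a single letter, or begins with Atp6v or Atp6ap, together with Lamp1, Lamp2, Tfeb and Mitf. Among the 49585 genes listed, 48 matched these names. A gene was tested where it reached 1 CPM (reads scaled by the authors to library size, where 1 read is worth 0.0328 to 0.048 CPM) in at least 3 of the 12 libraries. This left 40 members among 16126 tested genes, namely 10 cysteine cathepsins, 3 aspartic and serine cathepsins, 11 subunits of the pump's V1 sector, 9 of its V0 sector, 2 pump accessory proteins, 2 lysosomal membrane proteins, 2 transcription factors and 1 pseudogene. The rule itself uses names and the minimum level and no comparison between groups, and it was proposed with earlier results of these data known.

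Poly(A) RNA of whole mouse lung was sequenced in a design of 2 genotypes and 2 exposures, with 3 libraries in each of 4 groups. The groups were RGS4 KO lungs exposed to Aspergillus fumigatus (Af; the treatment label spells it Aspergillus funigatus), RGS4 KO lungs exposed to phosphate-buffered saline (PBS), WT lungs exposed to Af, and WT lungs exposed to PBS. The study made the RGS4 knockout to examine this G protein regulator in asthma, and all 4 groups carry the strain label Balb/cJ. The labels give neither the age and sex of the mice and the kind of knockout nor the form, dose, route and timing of Af. They also leave unsaid whether each library is a separate mouse, so a p-value here speaks of variation among libraries, which may be technical. Libraries are named below by the numbers in their labels, which run over KO (9 to 14) before WT (15 to 20) and over PBS before Af within each genotype, so that an effect of processing order cannot be told apart from genotype or exposure.

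Cathepsins are made as inactive precursors and become active on reaching the acidic lumen, where most belong to the papain-like cysteine class and a few to the aspartic and serine classes. The pump has a cytosolic V1 sector that hydrolyses ATP and a membrane V0 sector that carries protons across. Several subunits have paralogous genes, called isoforms here, some present in nearly every cell and others known from kidney, osteoclasts or brain. TFEB and MITF belong to a small family of transcription factors that bind the CLEAR element, a palindrome with an E-box core that is found near many lysosomal genes. In lung, alveolar macrophages are rich in lysosomes, and alveolar type 2 cells store surfactant in lysosome-related lamellar bodies.

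The reference sequence at the start sites of the members shows where this element occurs. RefSeq windows on GRCm38.p6, from 250 bases before to 50 bases after a start site, were given for 29 of the 40 members. The E-box core CACGTG was present on either strand in 9 of these 29 genes (31%), against 8.09% of 27025 genes with a window. The longer core of the CLEAR element, TCACGTGA, which contains CACGTG, was present in 5 of 29 (17.2%), against 1.12% of the 27025. The AP-1 motif TGAGTCA was found in 0 of 29, against 5.95% of the 27025. A match describes the letters in a window and not binding. The sites are shown in the sense of the gene, with CACGTG or the longer core in capitals, because the values of these genes are set against them below. All sites of a gene are shown but for Ctsd, which has another CACGTG farther from the start site, outside the stretch shown. The genes with the longer core are listed first, then those with CACGTG alone.
Ctsa, chr2:164833758-164833786, plus strand: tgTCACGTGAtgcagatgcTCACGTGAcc
Ctsd, chr7:142387908-142387937, minus strand: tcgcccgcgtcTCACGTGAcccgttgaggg
Atp6v1a, chr16:44139373-44139402, minus strand: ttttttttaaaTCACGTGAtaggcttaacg
Atp6v0d1, chr8:105566050-105566079, minus strand: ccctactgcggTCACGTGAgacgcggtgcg
Atp6v0e, chr17:26676387-26676416, plus strand: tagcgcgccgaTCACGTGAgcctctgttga
Ctsf, chr19:4855074-4855103, plus strand: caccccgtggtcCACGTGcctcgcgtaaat
Ctsl, chr13:64370739-64370768, minus strand: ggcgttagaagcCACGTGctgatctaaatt
Lamp1, chr8:13159041-13159160, plus strand: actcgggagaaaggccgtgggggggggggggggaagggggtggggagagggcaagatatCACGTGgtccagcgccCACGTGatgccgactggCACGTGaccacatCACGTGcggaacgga
Atp6v0b, chr4:117887334-117887449, minus strand: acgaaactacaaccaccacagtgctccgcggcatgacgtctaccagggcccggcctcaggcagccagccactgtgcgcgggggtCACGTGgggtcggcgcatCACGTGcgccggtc

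The libraries held 20708884 to 30229446 reads assigned to genes. Rgs4 itself, the targeted gene, averaged 1.15 ± 0.311 CPM in Af-exposed KO lungs and 0.892 ± 0.282 CPM in PBS-exposed KO lungs, against 45.1 ± 3.27 CPM in Af-exposed WT lungs and 22.9 ± 2.63 CPM in PBS-exposed WT lungs (SD, n = 3 each), so that all KO libraries were far below all WT libraries. Some libraries stood apart in the member genes. WT_PBS 15 was the highest library of its group for 33 of 40 members (82.5%, against 41.6% of all tested genes), and KO_Af 12 for 24 of 40 (60%, against 40.3%). WT_PBS 15 also had the highest sum of 8 alveolar type 2 markers, at 27776 CPM, and KO_Af 12 was next at 22181 CPM. Results that change without a single library are given with that value below.

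Exposure to Af raised most of the members in both genotypes. In KO lungs 29 of 40 members were higher with Af than with PBS and 3 were lower, where 28.7% of all 16126 tested genes were higher and 29.2% lower (limma, adjusted p under 0.05 with Benjamini-Hochberg adjustment over all tested genes). In WT lungs 27 were higher and 2 lower, where 26.2% of all tested genes were higher and 25.6% lower. The median log2 fold change of the members was 0.57 in KO and 0.49 in WT lungs, against -0.016 over all tested genes in each genotype. The same 25 members were higher in both genotypes and 2, Ctsf and Atp6v0e2, were lower in both. Another 4 were called higher in KO alone (Ctsd, Lamp2, Atp6v1e1 and Atp6v0a2), 2 higher in WT alone (Ctsw and Atp6v0a1) and 1 lower in KO alone (Ctso), while 6 were called in neither genotype. A call in a single genotype is no test of a difference between genotypes. That test is given further on, where limma called none of these 7 and DESeq2 called Ctsw.

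**Figure D1:**
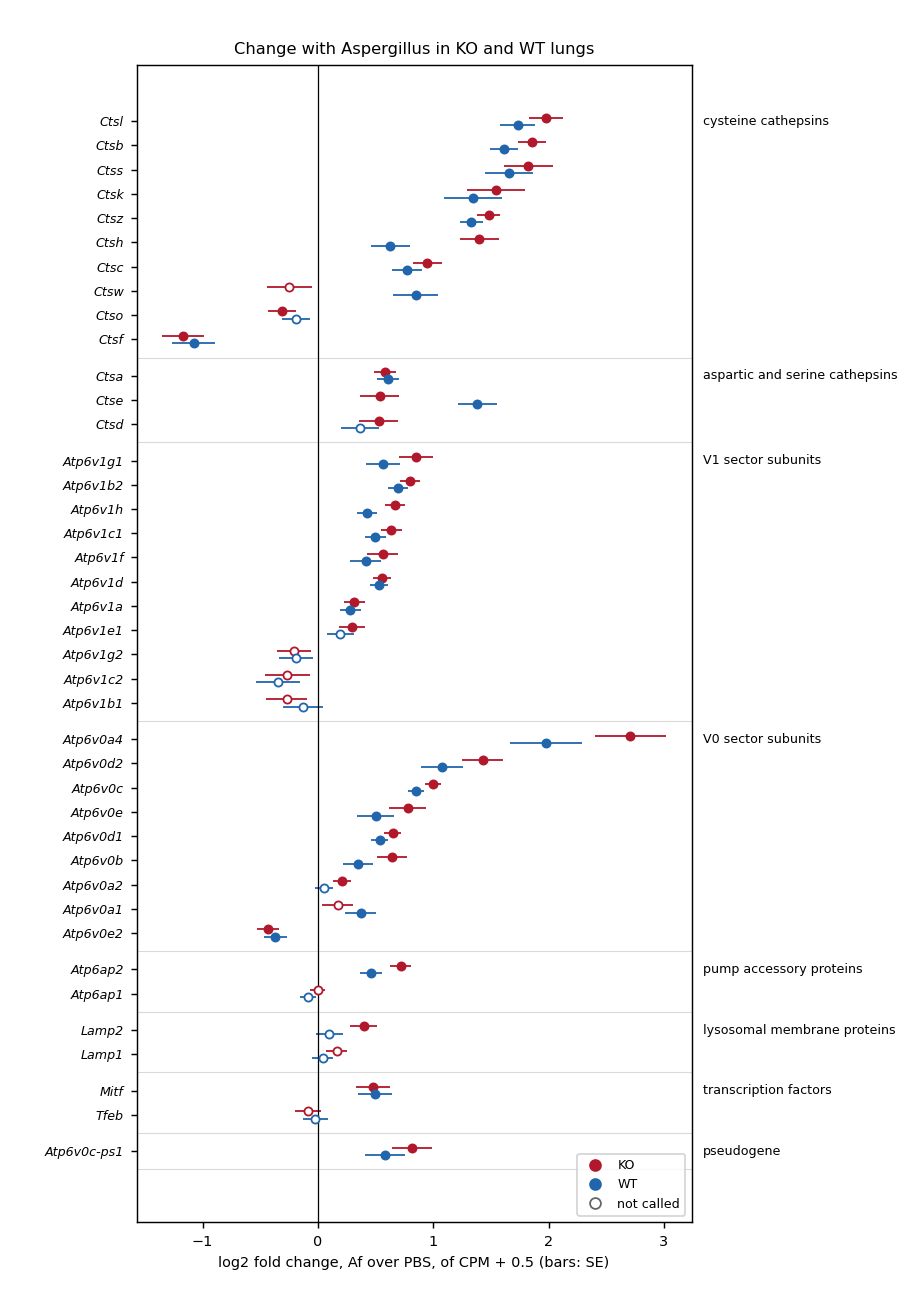
Log2 fold change of each of the 40 members, Af over PBS, in KO lungs (red) and WT lungs (blue), on log2(CPM + 0.5), with bars of 1 SE and open circles where limma did not call a change; members are grouped by role. Ctsl, Ctsb and Ctss lie between 1.62 and 1.98 in both genotypes, Atp6v0a4 is the farthest to the right at 2.71 in KO, and Ctsf the farthest to the left at -1.17 in KO.

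Whole-lung RNA cannot tell apart more cells of a type and more RNA per cell, and markers of macrophages took a larger share of the RNA with Af. The 10 macrophage markers summed to 1697 to 2961 CPM in Af-exposed KO lungs and 598 to 640.3 CPM in PBS-exposed KO lungs. Their sums were 1795 to 2476 CPM in Af-exposed WT lungs and 658 to 796 CPM in PBS-exposed WT lungs. In each genotype 9 of these 10 were called higher and none was at 0 in all libraries. The 8 alveolar macrophage markers summed to 3025 to 4098 CPM in Af-exposed KO lungs against 679 to 939 CPM in PBS-exposed KO lungs. Their sums were 2717 to 4098 CPM in Af-exposed WT lungs against 625 to 879 CPM in PBS-exposed WT lungs. The rise of this sum was not shared by most of the list, with 2 of 8 called higher and 3 lower in each genotype. Chil3 rose by 4.03 in KO and 4.16 in WT on the log2 scale. Marco changed by -2.00 and -1.87, and Plet1 by -0.87 and -1.34, in KO and WT lungs in that order. Adgre1, the gene of the F4/80 antigen, averaged 96.5 ± 13.4 CPM in Af-exposed KO lungs and 34.2 ± 5.55 CPM in PBS-exposed KO lungs (SD, n = 3 each). The 8 alveolar type 2 markers summed to 13861 to 22181 CPM in Af-exposed KO lungs and 18976 to 20558 CPM in PBS-exposed KO lungs, ranges that overlap. Of these markers Abca3, Sftpb and Etv5 were called lower with Af in both genotypes, and none was called higher. The log2 fold changes of Abca3, Sftpb and Etv5 were -0.68, -0.68 and -0.89 in KO lungs and -0.55, -0.66 and -0.47 in WT lungs. Of other cells, 4 of 8 neutrophil, 4 of 6 eosinophil and 4 of 8 dendritic cell markers were called higher with Af in KO lungs, and 6 of 8, 4 of 6 and 5 of 8 in WT lungs. The dendritic cell marker Clec9a went the other way and was called lower in both genotypes. Its log2 fold change was -1.0043 in KO lungs and -0.91199 in WT lungs. Most markers of some other cells fell. In KO lungs 5 of 6 club cell, 5 of 6 alveolar type 1 and 4 of 5 endothelial cell markers were called lower. The counts in WT lungs were 5 of 6, 5 of 6 and 3 of 5. The remaining alveolar type 1 marker was called higher in KO lungs (log2 0.57, limma, adjusted p = 0.0355) and was not called in WT lungs. In KO lungs the club cell sums were 7799 to 14896 CPM with Af and 19464 to 21572 CPM with PBS, the alveolar type 1 sums 1648 to 2903 CPM with Af and 3028 to 4343 CPM with PBS, and the endothelial sums 1902 to 2945 CPM with Af and 4032 to 4171 CPM with PBS. The mast cell marker sums in KO lungs were 115 to 181 CPM with Af and 283 to 309 CPM with PBS. This fall of the sum ran against most of the calls. Of the 7 markers 3 were called higher, Cpa3, Fcer1a and Ms4a2, and Kit alone was called lower (log2 fold change -1.27). The part of cell composition in the changes described here, in members that rose and in those that fell, was not tested.

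The 13 cathepsins together took a larger share of all reads with Af. Their share was 0.766%, 0.799% and 0.645% in the 3 Af-exposed KO lungs, against 0.323%, 0.307% and 0.327% in the 3 PBS-exposed KO lungs. In WT lungs it was 0.735%, 0.662% and 0.707% with Af, against 0.393%, 0.323% and 0.296% with PBS. No Af-exposed library fell within the range of the PBS-exposed ones. The 22 pump genes moved less, taking 0.237% to 0.252% in Af-exposed KO lungs against 0.168% to 0.173% in PBS-exposed KO lungs, and 0.225% to 0.240% in Af-exposed WT lungs against 0.163% to 0.182% in PBS-exposed WT lungs.

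**Figure D2:**
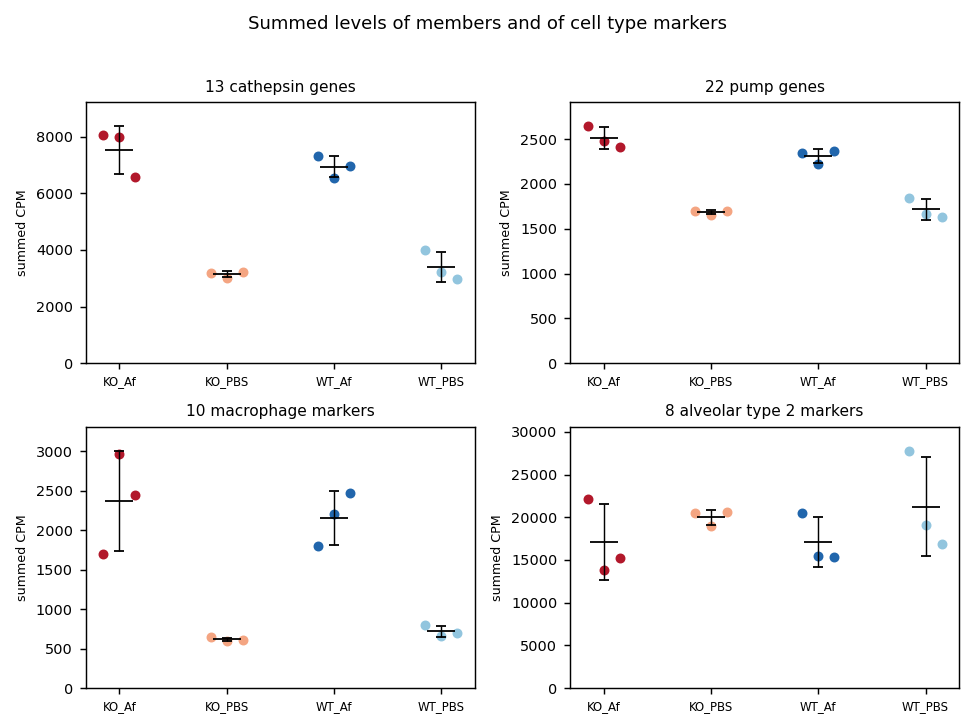
Summed CPM in every library (points, with mean and SD over 3 libraries per group) of the 13 cathepsins, the 22 pump genes, 10 macrophage markers and 8 alveolar type 2 markers. Sums of the cathepsins, the pump genes and the macrophage markers are higher in all Af-exposed libraries than in all PBS-exposed ones of the same genotype, while those of the alveolar type 2 markers overlap.

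Of the 10 cysteine cathepsins 7 were called higher and 2 lower with Af in KO lungs, and 8 higher and 1 lower in WT lungs. Ctsl, Ctsb, Ctss and Ctsk had the largest changes in both genotypes. Ctsb (chromosome 14, 63122462 to 63145923, GRCm38) had 2211, 2585 and 2054 CPM in Af-exposed KO lungs, against 656, 586 and 642 CPM in PBS-exposed KO lungs. In WT lungs Ctsb had 2075, 2197 and 2319 CPM with Af and 784, 683 and 686 CPM with PBS. Every Af-exposed library was far above every PBS-exposed one, and the log2 fold change was 1.86 ± 0.12 (SE) in KO (limma, adjusted p = 4.53e-07) and 1.62 ± 0.12 in WT (adjusted p = 1.64e-06), or 3.62-fold and 3.06-fold. Ctsl, a broad endopeptidase (chromosome 13, 64359337 to 64370890), had 876, 834 and 583 CPM in Af-exposed KO lungs, against 193, 187 and 193 CPM in PBS-exposed KO lungs, and 751, 647 and 696 CPM in Af-exposed WT lungs, against 245, 195 and 193 CPM in PBS-exposed WT lungs. Ctsl changed by 1.98 ± 0.15 in KO and 1.73 ± 0.15 in WT on the log2 scale (limma, adjusted p = 1.12e-06 and 4.35e-06), the groups did not overlap, and KO_Af 14 was the lowest of its group.

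Ctss, the protease that trims the invariant chain of MHC class II in antigen-presenting cells (chromosome 3, 95526786 to 95556403), had 894, 836 and 619 CPM in Af-exposed KO lungs and 205, 219 and 231 CPM in PBS-exposed KO lungs. In WT lungs Ctss had 885, 546 and 632 CPM with Af and 279.98, 205 and 169 CPM with PBS, with WT_Af 18 and WT_PBS 15 the highest of their groups. The groups stayed apart in both genotypes, with log2 fold changes of 1.82 ± 0.21 in KO and 1.66 ± 0.21 in WT (SE; limma, adjusted p = 2.59e-05 and 7.13e-05). Ctsk, the collagen-degrading cathepsin known from osteoclasts, lies beside Ctss (95499256 to 95509362) and had 161, 122 and 107 CPM in Af-exposed KO lungs and 35.4, 49.1 and 47.6 CPM in PBS-exposed KO lungs. In WT lungs Ctsk had 131, 96.1 and 127 CPM with Af and 67.1, 46.8 and 30.7 CPM with PBS. Its log2 fold change was 1.55 ± 0.25 in KO and 1.34 ± 0.25 in WT (SE; limma, adjusted p = 0.000313 and 0.00105), again without overlap.

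Exopeptidases of this class were also called higher. Ctsz, a carboxypeptidase, averaged 499.99 ± 44.5 CPM in Af-exposed KO lungs and 179 ± 11.4 CPM in PBS-exposed KO lungs, a log2 fold change of 1.48 ± 0.10 (limma, adjusted p = 6.48e-07). In WT lungs Ctsz averaged 447 ± 6.8 CPM with Af and 178 ± 21.9 CPM with PBS, a change of 1.33 ± 0.10 (adjusted p = 2.01e-06; means with SD, n = 3 each). Ctsc, dipeptidyl peptidase I, which activates the granule serine proteases of neutrophils, mast cells and cytotoxic lymphocytes, rose by 0.95 in KO and 0.77 in WT on the log2 scale (adjusted p = 8.11e-05 and 0.000446). Ctsh, an aminopeptidase that takes part in surfactant protein processing in alveolar type 2 cells, had 664, 433 and 513 CPM in Af-exposed KO lungs against 200.2, 203 and 197 CPM in PBS-exposed KO lungs. In WT lungs Ctsh had 415, 347 and 361 CPM with Af and 309.7, 226 and 201 CPM with PBS. KO_Af 12 and WT_PBS 15, the libraries with the highest alveolar type 2 marker sums, were also the highest of their groups for Ctsh, and the part of those cells in its values was not tested. The change of Ctsh was 1.40 ± 0.17 in KO and 0.63 ± 0.17 in WT (SE; limma, adjusted p = 3.83e-05 and 0.00939).

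Not every cysteine cathepsin followed. Ctsf, a papain-like protease of many tissues, had 15.2, 10.3 and 9.25 CPM in Af-exposed KO lungs, against 25.9, 26.01 and 26.5 CPM in PBS-exposed KO lungs. Its levels in WT lungs were 15.7, 11.1 and 10.4 CPM with Af and 30.3, 24.9 and 24.1 CPM with PBS. Ctsf thus fell below the lowest PBS-exposed value of its genotype in every Af-exposed library, with log2 fold changes of -1.17 ± 0.19 in KO and -1.08 ± 0.19 in WT (SE; limma, adjusted p = 0.000254 and 0.00058). Ctso averaged 62.5 ± 13.4 CPM in Af-exposed KO lungs and 76.5 ± 2.45 CPM in PBS-exposed KO lungs (SD, n = 3 each), and KO_Af 12 overlapped the PBS range. Its log2 fold change of -0.31 ± 0.12 in KO was near the threshold (limma, adjusted p = 0.0478), and it was called in 7 of 24 alternative settings. Leaving out any single library but KO_Af 12 ended the call for Ctso, with adjusted p of 0.0544 to 0.197, and its log2 fold change was -0.17 without KO_Af 14. In WT lungs the change of Ctso was -0.19 ± 0.12 (adjusted p = 0.214), and of the left-out libraries KO_Af 12 alone made it a call (adjusted p = 0.042).

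**Figure D3:**
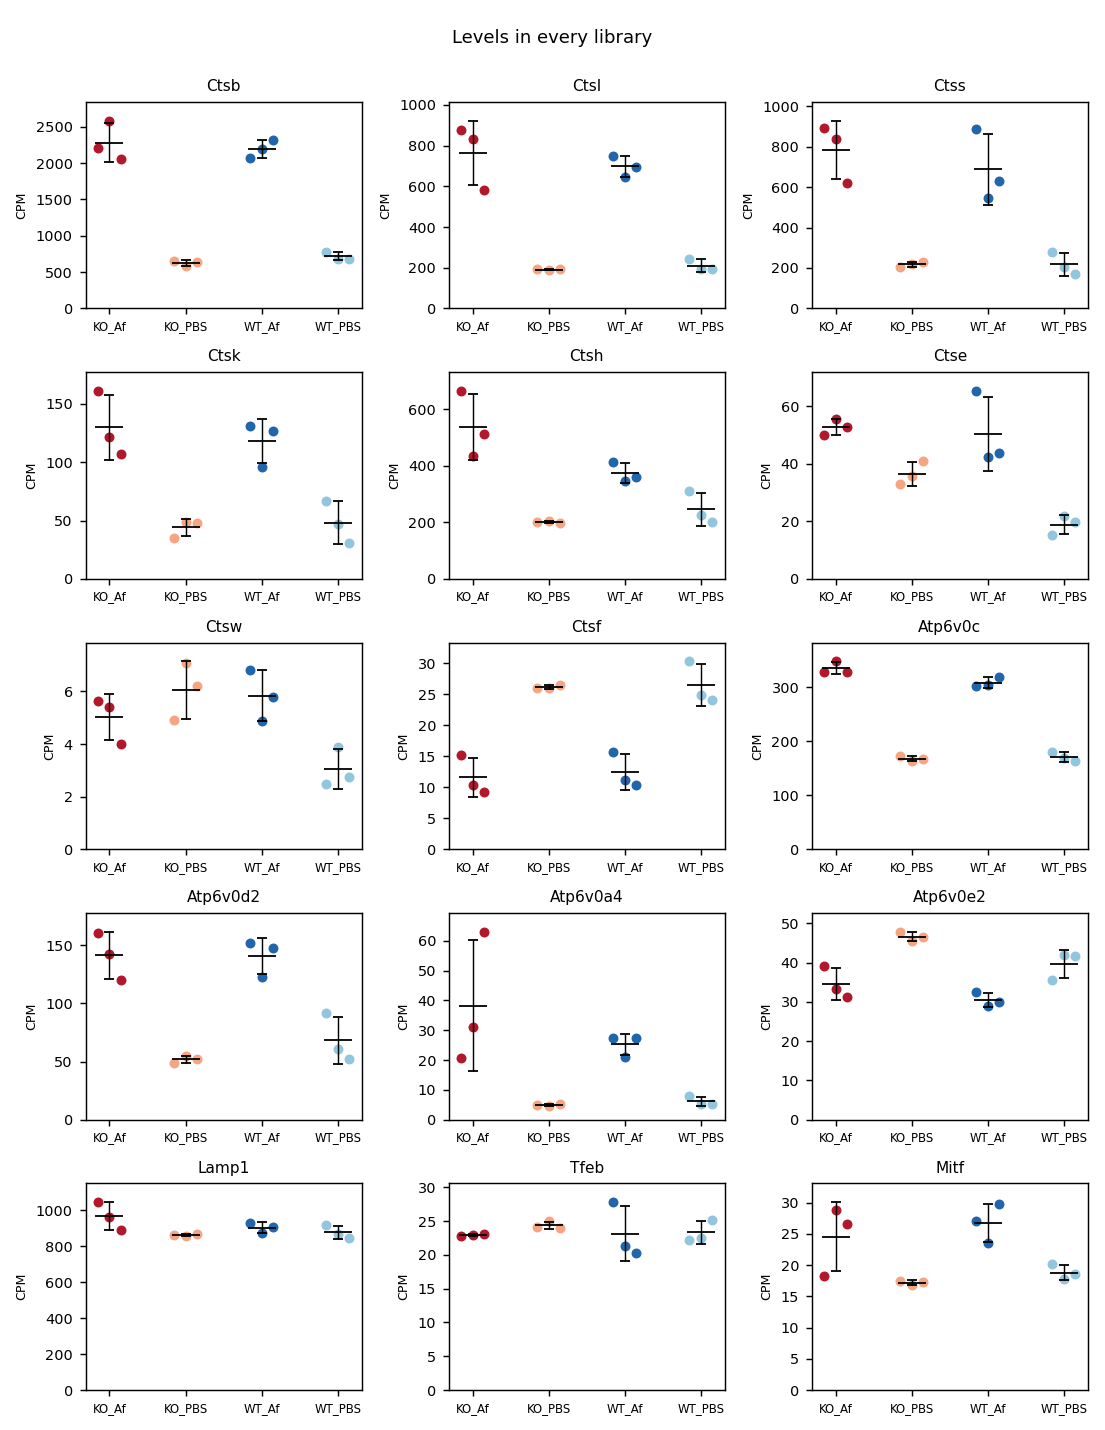
CPM of 15 members in every library (points, with mean and SD over 3 libraries per group), for KO_Af, KO_PBS, WT_Af and WT_PBS from left to right in each panel, all axes starting at 0. Ctsb, Ctsl, Ctss and Ctsk separate the exposures in both genotypes, Ctsf runs the other way, Ctse and Ctsw are lowest in PBS-exposed WT lungs, and Lamp1 and Tfeb, not called in either genotype, lie close together across the groups.

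Of the 3 aspartic and serine cathepsins all were called higher with Af in KO lungs and 2 in WT lungs. Ctsa, the serine carboxypeptidase that protects lysosomal beta-galactosidase and neuraminidase, averaged 401 ± 40.7 CPM in Af-exposed KO lungs and 266 ± 7.43 CPM in PBS-exposed KO lungs. In WT lungs Ctsa averaged 379 ± 17.3 CPM with Af and 249 ± 22.8 CPM with PBS (SD, n = 3 each). It rose by 0.58 ± 0.094 in KO and 0.61 ± 0.094 in WT (log2, SE; limma, adjusted p = 0.000289 and 0.000284). Ctsd, the major aspartic protease of lysosomes, had 1661, 1367 and 1168 CPM in Af-exposed KO lungs, against 993, 913 and 979 CPM in PBS-exposed KO lungs, and 1569.8, 1281 and 1329 CPM in Af-exposed WT lungs, against 1336, 1022 and 917 CPM in PBS-exposed WT lungs. WT_PBS 15 overlapped the Af-exposed WT range. The change of Ctsd was 0.53 ± 0.17 in KO (limma, adjusted p = 0.0174) and 0.36 ± 0.17 in WT (adjusted p = 0.0843, not called). The KO call was lost without KO_Af 12 (adjusted p = 0.052) or KO_PBS 10 (adjusted p = 0.0591), and in WT lungs Ctsd was called without WT_PBS 15 (adjusted p = 0.02065) or KO_Af 12 (adjusted p = 0.0445).

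Ctse, an endosomal aspartic protease of immune cells and gastric mucosa, lies on chromosome 1 (131638306 to 131675505, plus strand, GRCm38). It had 50.02, 55.5 and 52.9 CPM in Af-exposed KO lungs and 32.8, 35.6 and 40.8 CPM in PBS-exposed KO lungs. In WT lungs Ctse had 65.2, 42.2 and 43.7 CPM with Af and 15.1, 21.7 and 19.8 CPM with PBS, so that the exposures did not overlap in either genotype. The log2 fold change was 0.53 ± 0.17 in KO (limma, adjusted p = 0.0179; 0.0688 without KO_PBS 9, which ended the call) and 1.38 ± 0.17 in WT (adjusted p = 5.7e-05). Ctsw, a cathepsin of NK cells and cytotoxic T cells (chromosome 19, 5465043 to 5468507), had 5.62, 5.42 and 4.01 CPM in Af-exposed KO lungs and 4.9, 7.06 and 6.2 CPM in PBS-exposed KO lungs. In WT lungs it had 6.81, 4.88 and 5.8 CPM with Af and 2.48, 3.9 and 2.74 CPM with PBS. Ctsw rose in WT lungs by 0.85 ± 0.20 (log2, SE; limma, adjusted p = 0.00382), where 3 of 6 tested NK cell markers and 6 of 7 T cell markers were higher as well. The T cell sum was 437 CPM in WT_Af 18, which was also the highest of its group for Ctsw, against 118 and 94.2 CPM in the other two Af-exposed WT libraries and 40.6 to 87.8 CPM in PBS-exposed WT lungs, and Ctsw was still called without WT_Af 18. Ctsw changed by -0.25 ± 0.20 in KO lungs (adjusted p = 0.298, not called), where 1 of the 6 NK cell markers was lower and none of either list higher.

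In the V1 sector 8 of 11 subunits were higher with Af in KO lungs and 7 in WT lungs, and none was lower. In the B, C and G families the widely expressed gene rose in both genotypes, and its paralogue, known from fewer tissues, passed the test in neither. Atp6v1b2, the broadly expressed B subunit, had 209, 243 and 234 CPM in Af-exposed KO lungs against 135, 128 and 131 CPM in PBS-exposed KO lungs, and 221, 202 and 228 CPM in Af-exposed WT lungs against 147, 130.04 and 125 CPM in PBS-exposed WT lungs. The exposures did not overlap, and the change was 0.80 ± 0.087 in KO and 0.69 ± 0.087 in WT (log2, SE; limma, adjusted p = 1.74e-05 and 6.5e-05). Its paralogue Atp6v1b1, known from kidney intercalated cells, averaged 3.52 ± 0.398 CPM in Af-exposed KO lungs and 4.37 ± 0.784 CPM in PBS-exposed KO lungs (SD, n = 3 each; log2 fold change -0.27 in KO and -0.13 in WT, not called). Atp6v1g1, the broadly expressed stalk subunit, had 219, 129.9 and 156 CPM in Af-exposed KO lungs, with KO_Af 12 above the others, and 87.4, 86.4 and 99.3 CPM in PBS-exposed KO lungs. It rose by 0.85 in KO and 0.56 in WT on the log2 scale (adjusted p = 0.000501 and 0.00807), while Atp6v1g2, known from neurons, changed by -0.20 and -0.19 (adjusted p = 0.248 in KO and 0.296 in WT).

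Atp6v1c1 rose by 0.64 in KO and 0.50 in WT on the log2 scale, while its paralogue Atp6v1c2, known from lung and kidney, changed by -0.27 and -0.35 without a call (limma, adjusted p = 0.257 in KO and 0.153 in WT). Without KO_Af 12 the change of Atp6v1c2 in KO lungs was -0.47 and called lower (adjusted p = 0.03915). The catalytic subunit Atp6v1a, which carries the longer CLEAR core shown above, averaged 177 ± 16.8 CPM in Af-exposed KO lungs and 142 ± 4.62 CPM in PBS-exposed KO lungs, and 180.2 ± 7.12 CPM in Af-exposed WT lungs and 148 ± 13.95 CPM in PBS-exposed WT lungs (SD, n = 3 each). Its log2 fold change was 0.31 ± 0.089 in KO and 0.28 ± 0.089 in WT (SE; limma, adjusted p = 0.0101 and 0.0203). The WT call was lost without WT_Af 20, WT_PBS 16 or WT_PBS 17 (adjusted p = 0.0704 to 0.08325). Atp6v1h, the regulatory subunit that joins hydrolysis to rotation, rose by 0.66 and 0.42, and the rotor shaft Atp6v1d by 0.56 and 0.53, in KO and WT lungs in that order. Atp6v1f rose by 0.56 in KO and 0.41 in WT, the WT call being lost without WT_Af 18 or WT_PBS 16 (adjusted p = 0.0777 and 0.0744). Atp6v1e1, a stalk subunit, was called in KO alone (log2 0.30, adjusted p = 0.0427). This call was lost without any of 8 libraries (adjusted p = 0.0539 to 0.132), with a log2 fold change of 0.14 without KO_Af 12, and in WT lungs a call appeared without KO_Af 12 (adjusted p = 0.0216).

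In the V0 sector 7 of 9 subunits were higher with Af and 1 was lower in each genotype, and the changes in KO ran from -0.43 to 2.71 on the log2 scale, against -0.27 to 0.85 in V1. Atp6v0a4, the a-subunit isoform known from kidney and epididymis (chromosome 6, 38048483 to 38124586), had 20.6, 31.2 and 63.04 CPM in Af-exposed KO lungs and 4.76, 4.5 and 5.27 CPM in PBS-exposed KO lungs. In WT lungs it had 27.3, 21.1 and 27.4 CPM with Af and 7.78, 5.12 and 5.38 CPM with PBS. All Af-exposed libraries were above all PBS-exposed ones, and KO_Af 14 had the highest value by a wide margin. The change was 2.71 ± 0.31 in KO, or 6.54-fold, and 1.98 ± 0.31 in WT, or 3.94-fold (log2, SE; limma, adjusted p = 2.5e-05 and 0.000316). Without KO_Af 14 the KO value was 2.28 (adjusted p = 1.67e-05). Foxi1, which defines ionocytes, an airway cell type rich in this pump, was near 0 in all libraries, at no more than 0.048 CPM. Of the 5 genes listed for ionocytes only 2 were tested, Cftr and Kcnma1, and both were called lower with Af in each genotype. With Foxi1 near 0, these 2 genes cannot be read as a measure of ionocytes. Which cells carry the Atp6v0a4 change was not tested. Tcirg1, the a-subunit isoform of osteoclast and phagocyte lysosomes, is not a member by name and rose by 0.57 in KO and 0.69 in WT (adjusted p = 0.00604 and 0.00232).

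Atp6v0d2, the d-subunit isoform known from osteoclasts, kidney and macrophages (chromosome 4, 19876841 to 19922605), had 161, 143 and 121 CPM in Af-exposed KO lungs against 48.97, 55.1 and 51.8 CPM in PBS-exposed KO lungs. In WT lungs it had 152, 123 and 148 CPM with Af and 91.5, 60.7 and 52.4 CPM with PBS, with WT_PBS 15 the highest of its group but below every Af-exposed library. The change was 1.43 ± 0.18 in KO and 1.08 ± 0.18 in WT (log2, SE; limma, adjusted p = 4.53e-05 and 0.000447). Its broadly expressed paralogue Atp6v0d1, which carries the longer CLEAR core, rose by 0.65 ± 0.073 and 0.53 ± 0.073 (adjusted p = 2.21e-05 in KO and 0.000123 in WT). Atp6v0c, the proteolipid of the rotating ring, had 329, 348 and 329 CPM in Af-exposed KO lungs and 172, 163 and 168 CPM in PBS-exposed KO lungs, and 303, 304 and 320.1 CPM in Af-exposed WT lungs and 181, 169 and 164 CPM in PBS-exposed WT lungs. These groups were tight and far apart, giving 0.998 ± 0.070 in KO and 0.85 ± 0.070 in WT (log2, SE; adjusted p = 7.45e-07 and 3.32e-06). Its processed pseudogene Atp6v0c-ps1, on chromosome 7, could share reads with it, and its call is uncertain for that reason. It was the member nearest the minimum level, with 1 CPM or more in 7 libraries, namely all Af-exposed ones and KO_PBS 11. The pseudogene thus passed the filter through the exposure in which it was higher. Without it, 28 of 39 members were called higher and 3 lower in KO lungs. It had 2.01, 2.34 and 1.62 CPM in Af-exposed KO lungs against 0.924, 0.743 and 1.05 CPM in PBS-exposed KO lungs. It changed by 0.82 in KO and 0.58 in WT on the log2 scale (limma, adjusted p = 0.00179 and 0.0147), the WT call being lost without WT_Af 19 or WT_PBS 17 (adjusted p = 0.0547 to 0.058).

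The small subunit Atp6v0e, with the longer CLEAR core, rose by 0.78 ± 0.16 in KO and 0.50 ± 0.16 in WT (log2, SE; limma, adjusted p = 0.00151 and 0.0212). The WT call was lost without WT_Af 18, WT_PBS 16 or WT_PBS 17 (adjusted p = 0.06105 to 0.07924). Its paralogue Atp6v0e2, known from brain, had 39.2, 33.2 and 31.2 CPM in Af-exposed KO lungs and 47.8, 45.5 and 46.6 CPM in PBS-exposed KO lungs, and 32.5, 29.1 and 29.99 CPM in Af-exposed WT lungs and 35.5, 41.9 and 41.6 CPM in PBS-exposed WT lungs. Atp6v0e2 fell, with log2 fold changes of -0.43 ± 0.099 in KO and -0.37 ± 0.099 in WT (SE; adjusted p = 0.00284 and 0.00841), the only pump subunit called lower. Atp6v0b, another ring subunit, rose by 0.64 in KO (adjusted p = 0.00138) and 0.35 in WT (adjusted p = 0.0409), the WT call being lost without any of 8 libraries (adjusted p = 0.0526 to 0.121). Atp6v0a1 was called in WT alone (0.37, adjusted p = 0.0352; 0.17 in KO, adjusted p = 0.289), was lost there without any of 5 libraries (adjusted p = 0.0646 to 0.13), and was called in KO without KO_Af 12, where its log2 fold change was 0.34 (adjusted p = 0.0124). Atp6v0a2 was called in KO alone (0.21, adjusted p = 0.0395; 0.052 in WT), and was lost without any of 8 libraries (adjusted p = 0.0502 to 0.13).

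The paralogues also shifted in their share of the tested member genes of each subunit family, where levels were divided by the length of the longest annotated transcript of each gene. These shares are a description with no test, and a gene expressed mainly as a shorter transcript is understated in them. Atp6v0a4 made up 13.1%, 14.2% and 26.9% of the summed a1, a2 and a4 levels in Af-exposed KO lungs, against 3.09%, 2.94% and 3.76% in PBS-exposed KO lungs. Its share was 14.3%, 10.9% and 12.9% in Af-exposed WT lungs, against 4.94%, 3.51% and 3.66% in PBS-exposed WT lungs. The a-subunit isoform Tcirg1 is not a member and is left out of this sum. These values therefore overstate the share of Atp6v0a4 in the whole a family. Atp6v0d2 held 38.1 ± 2.75% of the d pair in Af-exposed KO lungs and 26.4 ± 1.59% in PBS-exposed KO lungs, and 40.1 ± 2.65% in Af-exposed WT lungs and 31.6 ± 4.93% in PBS-exposed WT lungs (SD, n = 3 each). In the other direction, Atp6v0e2 held 35.5 ± 3.88% of the e pair in Af-exposed KO lungs and 56.2 ± 0.951% in PBS-exposed KO lungs, and 36.3 ± 1.52% in Af-exposed WT lungs and 51.2 ± 4.05% in PBS-exposed WT lungs. Atp6v1c2 held 55.8 ± 3.13% of the C pair in Af-exposed KO lungs and 70.4 ± 0.415% in PBS-exposed KO lungs, and 57.5 ± 5.22% in Af-exposed WT lungs and 70.9 ± 4.47% in PBS-exposed WT lungs. Atp6v1b1 and Atp6v1g2 held at most 5.48% and 2.22% of their families in any library.

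**Figure D4:**
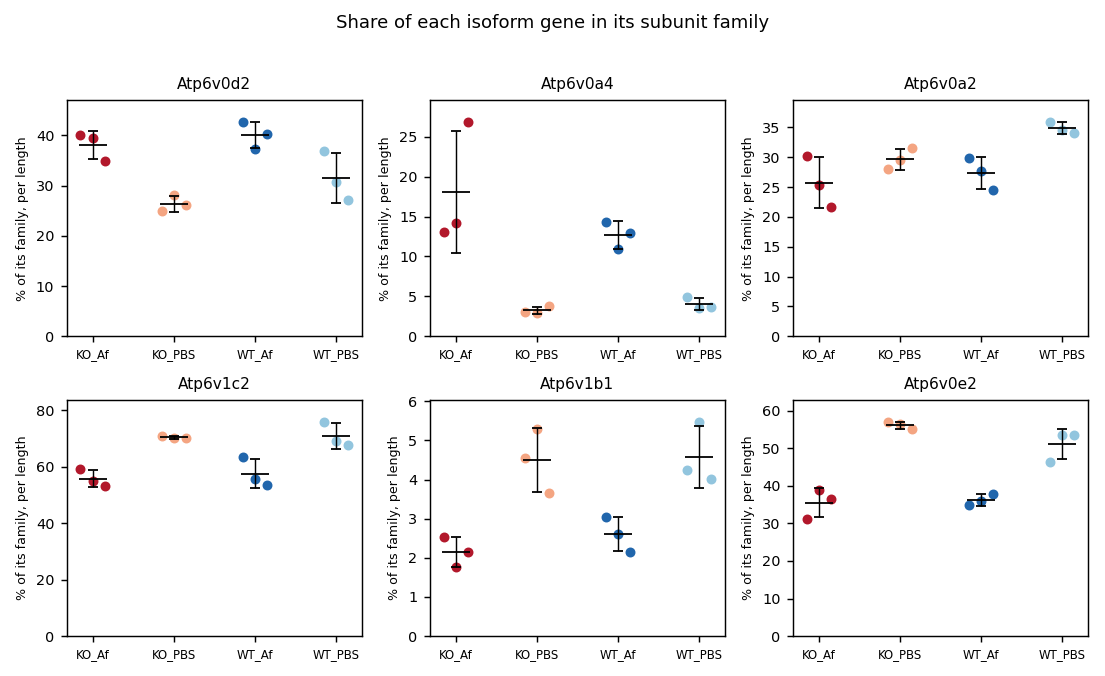
Share of each isoform gene in the summed level of the tested member genes of its subunit family, in percent, with levels per kilobase of the longest annotated transcript. Points are libraries, with mean and SD over 3 per group. Tcirg1, an a-subunit isoform, is not a member and is left out of the a family. Atp6v0d2 and Atp6v0a4 hold larger shares in all Af-exposed libraries than in all PBS-exposed ones of the same genotype, and Atp6v1c2, Atp6v1b1 and Atp6v0e2 smaller ones, while those of Atp6v0a2 overlap in KO lungs.

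The accessory proteins differed from each other. Atp6ap2, the prorenin receptor, had 139, 126 and 124 CPM in Af-exposed KO lungs and 75.7, 77.3 and 83.3 CPM in PBS-exposed KO lungs, and 113, 108 and 118 CPM in Af-exposed WT lungs and 93.2, 79.5 and 73.9 CPM in PBS-exposed WT lungs. It rose by 0.72 ± 0.092 in KO and 0.46 ± 0.092 in WT (log2, SE; limma, adjusted p = 5.66e-05 and 0.00155). Atp6ap1, or Ac45, averaged 230.1 ± 7.97 CPM in Af-exposed KO lungs and 231 ± 1.81 CPM in PBS-exposed KO lungs (SD, n = 3 each), with log2 fold changes of -0.0037 ± 0.065 in KO and -0.086 ± 0.065 in WT, neither called.

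The lysosomal membrane proteins changed by smaller amounts than most of the proteases. Lamp1, the most used marker of the organelle and the gene with 4 E-box cores in the window above, had 1045, 964 and 892 CPM in Af-exposed KO lungs and 865, 857 and 865 CPM in PBS-exposed KO lungs. In WT lungs Lamp1 had 929, 871 and 907 CPM with Af and 918, 868 and 848 CPM with PBS, where the exposures overlapped. Its log2 fold change was 0.16 ± 0.093 in KO and 0.040 ± 0.093 in WT (SE; limma, adjusted p = 0.157 and 0.738). Lamp2, a receptor of chaperone-mediated autophagy, averaged 412 ± 58.1 CPM in Af-exposed KO lungs and 311 ± 2.79 CPM in PBS-exposed KO lungs (SD, n = 3 each) and rose by 0.40 ± 0.12 in KO (adjusted p = 0.0124). In WT lungs Lamp2 changed by 0.098 ± 0.12 (adjusted p = 0.505), with WT_PBS 15 above all Af-exposed WT libraries.

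Of the transcription factors, Tfeb had 22.8, 22.9 and 23.1 CPM in Af-exposed KO lungs and 24.1, 25.01 and 24.0 CPM in PBS-exposed KO lungs, and 27.8, 21.3 and 20.3 CPM in Af-exposed WT lungs and 22.1, 22.6 and 25.2 CPM in PBS-exposed WT lungs. Its log2 fold change was -0.086 ± 0.11 in KO and -0.023 ± 0.11 in WT, neither called (SE; limma, adjusted p = 0.521 and 0.875). TFEB is known to be controlled by phosphorylation and movement to the nucleus, which RNA levels do not show. Mitf averaged 24.6 ± 5.51 CPM in Af-exposed KO lungs and 17.2 ± 0.374 CPM in PBS-exposed KO lungs, and 26.8 ± 3.08 CPM in Af-exposed WT lungs and 18.8 ± 1.23 CPM in PBS-exposed WT lungs (SD, n = 3 each). Mitf rose by 0.48 ± 0.15 and 0.49 ± 0.15 (adjusted p = 0.0162 in KO and 0.0155 in WT). The KO call was lost without KO_Af 13 or KO_Af 14 (adjusted p = 0.0653 and 0.059) and the WT call without WT_Af 20 or WT_PBS 16 (adjusted p = 0.0623 and 0.0533). Of 18 genes of this factor family and its regulators 7 were higher and 3 lower in KO, and 5 higher and 1 lower in WT. Of all tested genes 28.7% were higher and 29.2% lower in KO, and 26.2% higher and 25.6% lower in WT, so the count of higher genes in WT is near that share. The family member Tfec, which is known from macrophages, had 32.6, 39.8 and 35.4 CPM in Af-exposed KO lungs and 5.69, 4.5 and 5.85 CPM in PBS-exposed KO lungs, and rose by 2.65 ± 0.18 in KO and 2.19 ± 0.18 in WT (adjusted p = 5.9e-07 and 3.25e-06). Tfe3 changed by 0.35 ± 0.14 in KO (adjusted p = 0.0526, not called) and 0.55 ± 0.14 in WT (adjusted p = 0.00754).

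The 9 genes with CACGTG in the window did not share 1 direction. With Af the 5 genes with the longer core changed by 0.31 to 0.78 in KO lungs and by 0.28 to 0.61 in WT lungs on the log2 scale, with 5 of 5 and 4 of 5 called higher, where 29 and 27 of all 40 members were. Larger changes, given above, were seen in Ctsl, which has CACGTG alone, and in Ctss and Ctsz, whose windows lack it. Whether the CACGTG sites take part in any change was not tested. Of the 4 with CACGTG alone, Ctsl and Atp6v0b were called higher in both genotypes, Ctsf was called lower in both, and Lamp1 was called in neither.

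Per kilobase of the longest annotated transcript, Ctsd had the highest level of the members in every group. It averaged 658 CPM per kb in Af-exposed KO lungs, 452 in PBS-exposed KO lungs, 655 in Af-exposed WT lungs and 513 in PBS-exposed WT lungs. In Af-exposed KO lungs Ctss (578 ± 107), Ctsb (481 ± 57.5) and Lamp1 (434 ± 34.3) came next, with SDs that overlap between neighbours. In PBS-exposed WT lungs Lamp1 (394 ± 16.2) was second, well above Ctss (161 ± 41.7) and Ctsb (151 ± 12.1 CPM per kb, SD, n = 3 each). Among the pump genes Atp6v1g1, Atp6v0c and Atp6v0b had the highest levels per kb in Af-exposed KO lungs, at 148, 131 and 125, and the isoforms Atp6v1b1 and Atp6v1g2 the lowest, at 1.76 and 1.22. A gene expressed mainly as a shorter transcript is understated in this order too. Ctsl was divided by 6168 bases and Ctsb by 4743, against 2127 for Ctsd and 1355 for Ctss, so their true order may differ.

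Of the 8 genes that matched the names without reaching the minimum level, Ctsj, Ctsm, Ctsq and Ctsr, cathepsins of mouse placenta, and Atp6v1e2, known from testis, had no read in any library. Atp6ap1l had 1 read in 1 library. Ctsg, a serine protease of neutrophil granules, had 0 to 0.354 CPM. Atp6v1g3, a stalk isoform known from kidney, was just below the minimum, with 1.46, 0.735 and 0.771 CPM in Af-exposed KO lungs and 0, 0.0372 and 0.044 CPM in PBS-exposed KO lungs. In WT lungs Atp6v1g3 had 0.432, 0.819 and 0.524 CPM with Af and 0.124, 0.0434 and 0.0472 CPM with PBS. A single read stands for 0.0328 to 0.048 CPM in these libraries, so its PBS values rest on 0 to 3 reads.

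Other lysosomal genes are given by lists, to be read against all tested genes, of which 28.7% were higher and 29.2% lower with Af in KO lungs and 26.2% higher and 25.6% lower in WT lungs. Of 38 tested hydrolases outside the cathepsins 21 were higher and 4 lower with Af in KO lungs, and 21 were higher and 2 lower in WT lungs, with median log2 fold changes of 0.30 and 0.34. Lgmn, the asparaginyl endopeptidase that processes cathepsin precursors, rose by 1.96 ± 0.16 in KO and 1.66 ± 0.16 in WT (log2, SE; limma, adjusted p = 1.97e-06 and 9.55e-06). Ifi30, the lysosomal thiol reductase of antigen processing, rose by 1.71 and 1.57, and Gla by 1.07 and 1.07, in KO and WT lungs in that order. Of 25 genes for lysosomal membrane and transport proteins 11 were higher and 4 lower in KO, and 10 higher and 4 lower in WT. Cd63 rose by 1.78 in KO and 1.28 in WT, and Slc11a1, the phagosomal metal transporter, by 0.81 and 1.12, while the endolysosomal channel gene Tpcn1 fell, with -0.94 in KO lungs (adjusted p = 3.79e-05).

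Of 9 tested inhibitors of cysteine cathepsins 4 were higher in KO and 3 in WT lungs, and none was lower. The count in WT is near the 26.2% of all tested genes that were higher. Cstb, or stefin B, had 191, 132 and 149 CPM in Af-exposed KO lungs and 32.8, 36.2 and 39.6 CPM in PBS-exposed KO lungs, and 122, 115 and 126 CPM in Af-exposed WT lungs and 37.7, 34.3 and 30.3 CPM in PBS-exposed WT lungs. No exposure groups overlapped, and it rose by 2.10 ± 0.13 and 1.81 ± 0.13 (log2, SE; limma, adjusted p = 3.63e-07 in KO and 1.34e-06 in WT). Cst7, or cystatin F, an inhibitor carried inside leukocyte granules and lysosomes, rose by 1.97 ± 0.25 in KO and 1.99 ± 0.25 in WT (adjusted p = 4.74e-05 and 6.16e-05). Serpina3g, a serpin that inhibits cathepsins, rose by 2.84 ± 0.19 in KO and 3.69 ± 0.19 in WT (adjusted p = 6.24e-07 and 2.86e-07).

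Few genes for sorting hydrolases and for assembling the pump were called. Of 17 sorting genes 2 were higher and 2 lower in KO, and 3 higher and 1 lower in WT. Sort1, or sortilin, a receptor that carries some hydrolases to lysosomes, had 206, 205 and 174 CPM in Af-exposed KO lungs and 593, 585 and 477 CPM in PBS-exposed KO lungs, a change of -1.498 ± 0.14 (log2, SE; limma, adjusted p = 5.78e-06), and changed by -1.48 ± 0.14 in WT (adjusted p = 9.46e-06). Of 11 genes for pump assembly and disassembly 2 were higher and 2 lower in KO, and 2 higher and 1 lower in WT. The assembly factors Ccdc115 and Tmem199 rose by 0.58 and 0.46 in KO and by 0.50 and 0.56 in WT. Oxr1, of the TLDc proteins that release V1 from the membrane, fell, with -0.67 in KO and -0.54 in WT (adjusted p = 1.78e-05 and 0.000113).

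Between genotypes few members differed. Under PBS 2 of 40 members were higher in KO than in WT lungs, Ctse and Ctsw, and none was lower, where 1.9% of all tested genes were higher and 1.66% lower. Ctse in PBS-exposed lungs, with the values above, was higher in all 3 KO than in all 3 WT libraries, by 0.94 ± 0.17 on the log2 scale or 1.92-fold (SE; limma, adjusted p = 0.0137). The call was lost without KO_PBS 10 (adjusted p = 0.061) or KO_PBS 11 (adjusted p = 0.0667). Ctse (131638306 to 131675505) lies on the same chromosome as Rgs4 (chromosome 1, 169741477 to 169747642). Whether this position has a part in the Ctse difference was not tested. Ctsw, with 4.9, 7.06 and 6.2 CPM in KO and 2.48, 3.9 and 2.74 CPM in WT lungs under PBS, was higher by 0.89 ± 0.20 (adjusted p = 0.0319), and its call was lost without any 1 of 5 libraries, KO_PBS 9, 10 and 11 and WT_PBS 15 and 17 (adjusted p = 0.0512 to 0.141). The 7 NK cell markers summed to 53.9 to 63.8 CPM in PBS-exposed KO lungs and 18.8 to 35.4 CPM in PBS-exposed WT lungs, with 2 of 6 tested higher in KO, none lower and none at 0 in all libraries. The 7 T cell markers summed to 95.2 to 118 CPM in PBS-exposed KO lungs and 40.6 to 87.8 CPM in PBS-exposed WT lungs, with none called. Sums of neutrophil markers were 254 to 482 CPM in PBS-exposed KO lungs and 126 to 200.5 CPM in PBS-exposed WT lungs (1 of 8 called higher). Sums of dendritic cell markers were 174 to 194 CPM in PBS-exposed KO lungs and 137 to 161 CPM in PBS-exposed WT lungs (1 of 8 called higher). Mast cell marker sums were 283 to 309 CPM in PBS-exposed KO lungs and 186 to 216 CPM in PBS-exposed WT lungs, with no marker called. Endothelial sums were 4032 to 4171 CPM in PBS-exposed KO lungs and 2989 to 3597 CPM in PBS-exposed WT lungs, with Tek alone called, higher in KO. The part of these cells in the levels of Ctse and Ctsw was not tested.

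The other 38 members had log2 differences of -0.35 to 0.23, KO minus WT, under PBS. Atp6v0a2, at -0.24 ± 0.080 (limma, adjusted p = 0.133), was lower in all 3 KO than in all 3 WT libraries, and was called only without KO_Af 12 (adjusted p = 0.0494), with array weights or with DESeq2. Zkscan3, a repressor of lysosomal and autophagy genes in human cells, was lower in KO lungs, at -0.62 ± 0.087 (log2, SE; adjusted p = 0.0041), with 42.2, 45.04 and 40.4 CPM in PBS-exposed KO lungs and 69.5, 60.8 and 66.6 CPM in PBS-exposed WT lungs. Serpina3g was higher in KO by 0.86 (adjusted p = 0.0332).

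Under Af no member was called different between KO and WT lungs by limma (0 of 40, with 1 at an unadjusted p under 0.05), where 0.0372% of all tested genes were higher in KO and 0.0496% lower. The counts were also 0 by edgeR and by DESeq2, with 2 and 5 members at an unadjusted p under 0.05. The median difference of the members was 0.11, against 0.0038 over all tested genes. The member with the largest difference was Ctsh, at 0.50 ± 0.17 (log2, SE, adjusted p = 0.366), and its 3 KO values lay above its 3 WT values. The alveolar type 2 marker sums were 13861 to 22181 CPM in KO and 15324 to 20495 CPM in WT lungs, ranges that overlap. The part of these cells in the Ctsh difference was not tested. Over both exposures together, Ctse alone was called, higher in KO by 0.52 ± 0.12 (adjusted p = 0.04997), where 1.04% of all tested genes were higher and 1.12% lower. This call lay at the threshold and was lost without any 1 of 10 libraries, all but KO_Af 12 and WT_Af 18 (adjusted p = 0.054 to 0.134), and by edgeR.

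**Figure D5:**
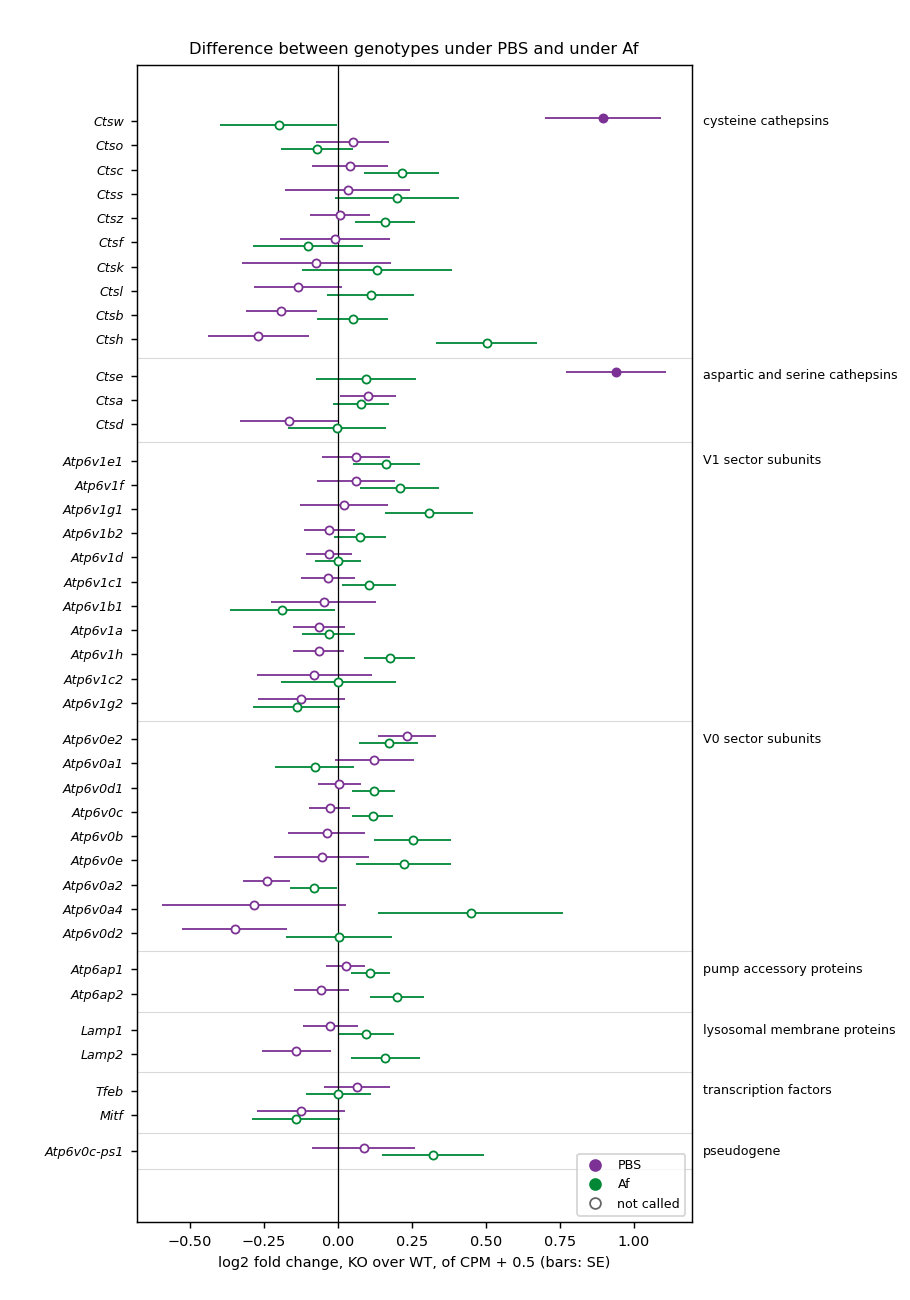
Log2 fold change of each of the 40 members, KO over WT, under PBS (purple) and under Af (green), on log2(CPM + 0.5), with bars of 1 SE; filled circles mark calls by limma. The 2 filled circles are Ctsw and Ctse under PBS, and all other points lie between -0.35 and 0.50.

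For no member was the response to Af called different between genotypes by limma (0 of 40, with 3 at an unadjusted p under 0.05), where 0.0062% of all tested genes responded more strongly in KO and 0.0% less. The edgeR count was also 0, with 3 members at an unadjusted p under 0.05. Ctsh had the largest positive difference, with a response in KO larger than in WT by 0.77 ± 0.24 (log2, SE; limma, adjusted p = 0.253). Ctsw and Ctse had the largest negative ones, -1.10 ± 0.28 and -0.85 ± 0.24 (adjusted p = 0.164 and 0.205). DESeq2 called these last 2 members and no other (adjusted p = 0.0272 for Ctsw and 0.0454 for Ctse), where it called 1.32% of 15481 genes higher and 1.05% lower. The interaction and the comparison under PBS share the PBS-exposed libraries, in which WT values of both genes were low, so they are not separate evidence. For Ctsl, Ctsb and Ctss the differences in response were 0.25 ± 0.21, 0.24 ± 0.17 and 0.17 ± 0.30, and for Atp6v0a4 0.73 ± 0.44, none of them called. With array weights limma called Atp6v0a4 (1.45, adjusted p = 0.0103), Ctsh (adjusted p = 0.0119) and Ctsw. The estimates for Atp6v0a4 ran from 0.30 to 1.45 over the alternatives.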

How the data were processed

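Poly(A) RNA of mouse lung was sequenced in 12 libraries, 3 in each of 4 groups, and grouped here by the genotype and treatment in the labels. The deposited signal values are, per the file's column names and values, CPM per gene scaled by TMM factors by the authors. RNA extraction used Qiagen RNeasy and libraries Illumina TruSeq mRNA, per the labels' protocols. The submitters' processing notes name cutadapt 1.18, STAR 2.7.6a, RSEM 1.3.0 and the builds GRCm38 and GRCh38, without their roles. Dividing each value by the value of 1 read gave whole reads for 100% of values (tolerance 0.01), 20708884 to 30229446 reads per library. Counting error and the spread between libraries both enter the tests. No 2 libraries of the same group agreed within sampling noise (lowest chi-square per degree of freedom 9.9). The highest values over all genes were 90.1 for KO_Af 12 with KO_Af 13 and 79.2 for KO_Af 12 with KO_Af 14. KO_Af 13 with KO_Af 14 gave 19.8. Of the gene identifiers 99.5% matched GENCODE M21.

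Values were tested as log2(CPM + 0.5) with limma 3.58.1 (R 4.3.3), with an intensity trend in the prior variance, 1 fit over 4 groups and 8 residual degrees of freedom. A gene entered the fit where 3 or more libraries reached 1 CPM. Fold changes understate those of low genes on this scale. Adjusted p-values (Benjamini-Hochberg) run over all 16126 tested genes with a threshold of 0.05. The script was tested on simulated data. Alternatives used edgeR 4.0.16 and DESeq2 1.42.0 on the recovered reads, other pseudocounts, filters, scalings and weights, and left-out libraries. Levels per kb divide CPM by the longest GENCODE M21 transcript.

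All members may be named. Of each list of related genes up to 4 with the smallest p among those called are named per comparison. The members and lists were chosen with earlier results of these data known.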

Additional observations from a re-analysis of the deposited data

How the results depend on the processing

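Each result was recomputed under 24 alternatives (23 for the difference over both exposures and for the difference in response). Of the members called, 26 of 32 in KO and 22 of 29 in WT lungs were called for Af against PBS under every alternative. Leaving out 1 library gave 26 to 29 higher and 2 to 4 lower members in KO, and 21 to 29 higher and 2 to 3 lower in WT. For KO against WT under PBS it gave 0 to 2 higher and 0 to 1 lower members, and over both exposures 0 to 1 higher.

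Array weights gave 5 lower members for Af in WT, 1 lower for KO against WT under PBS, 2 higher and 1 lower under Af, 3 higher and 1 lower over both exposures, and 2 higher and 1 lower for the difference in response. DESeq2 gave 1 lower under PBS and 2 lower for the difference in response. Under PBS the count of higher members was 1 with no filter and 1 without WT_PBS 17 and KO_Af 12 together. Over both exposures it was 0 with pseudocounts of 0.1 or 1 CPM, with no filter, with no TMM factor, with DESeq2 size factors, with no variance trend, with edgeR, and without that pair.

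The sign turned in 2 cases, neither called. Ctso, KO against WT under Af, gave 0.068 without KO_Af 14, within a left-out range of -0.23 to 0.068. Atp6v0a4 over both exposures gave -0.13 without KO_Af 14, within -0.13 to 0.26. The cause was not tested for any of these. No other scaling moved the median of all genes by more than 0.067 (log2). No paired analysis was possible because the groups share no replicate number. Genes at a few reads, such as Atp6v1g3 and Ctsg, are limited by depth.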

Other observations

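Genes of osteoclasts and multinucleated giant cells, a state of fused macrophages, were also examined. With Af 8 of 14 tested were higher and 1 lower in KO lungs, and 10 were higher and none lower in WT lungs (limma), where 28.7% of all tested genes were higher and 29.2% lower in KO and 26.2% and 25.6% in WT lungs. Ocstamp, a membrane protein needed for fusion, had 5.27, 11.4 and 10.4 CPM in Af-exposed KO lungs and 0.213, 0.149 and 0.132 CPM in PBS-exposed KO lungs, with log2 fold changes of 3.77 in KO and 3.02 in WT. Trem2, a myeloid lipid receptor, had 75.5, 59.9 and 48.8 CPM in Af-exposed KO lungs and 8.21, 6.61 and 8.79 CPM in PBS-exposed KO lungs, and rose by 2.87 in KO and 2.52 in WT. No group overlapped for these 2 genes within a genotype.

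Of 19 autophagy genes 5 were higher and 3 lower in KO lungs, and 5 were higher and 4 lower in WT lungs, shares of higher genes near those of all tested genes. Sqstm1, the cargo receptor p62, rose by 0.63 in KO and 0.86 in WT (limma, adjusted p = 4.51e-05 and 6.68e-06), while Ulk1, the kinase that starts autophagy, fell, with log2 fold changes of -0.80 and -0.72 (adjusted p = 7.11e-05 and 0.000216).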
